A study of Mus musculus with 6 samples.

Results

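Mast cells of the mouse dura were described from 10x single-cell RNA sequencing of the connective tissue lining the inner skull. Cells were chosen by their own counts. A barcode was taken as a mast cell when it came from either bone-associated library, held at least 500 genes and at most 10% mitochondrial transcripts, had a unique molecular identifier (UMI, 1 captured transcript) of at least 3 of the 5 genes Cpa3, Ms4a2, Mcpt4, Tpsb2 and Cma1, and had none of the T cell gene Cd3e or the B cell gene Cd79a. This rule found 73 cells, 15 in bone-associated library 1 and 58 in library 2, among 8804 barcodes that passed the same gene and mitochondrial limits in all 6 libraries. The 2 bone-associated libraries (labelled Dura/Skull) and the 4 cortical surface-associated libraries (labelled Brain) were made from adult C57BL6 mice with no other allele or agent named. Several mice of both sexes were pooled in each library, the mice were not perfused, and viable cells were sorted as DRAQ5-positive and propidium iodide-negative. The library is therefore the replicate (n = 2), and the spread between mice cannot be seen. The comparison cells were the other cells of the same bone-associated libraries with a UMI of Ptprc, the pan-leukocyte phosphatase CD45, of which there were 486 in library 1 and 1190 in library 2. A cell with UMIs of at least 3 of the 5 genes and of Cd3e or Cd79a was in neither group.

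Mast cells are tissue-resident immune cells that store proteases, histamine and the proteoglycan serglycin in granules. IgE bound to the high-affinity receptor FceRI, or basic peptides acting on Mrgprb2, trigger release of these granules, and the growth factor receptor Kit is needed for mast cell survival. Connective tissue mast cells line the vessels and nerves of the dura, whereas mast cells of mucosal surfaces carry a different protease set.

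The mast cells held a median of 8035 UMIs and 2521 genes in library 1 and 7390.5 UMIs and 2185.5 genes in library 2. The median depth of the other immune cells was 6381.5 and 7040.5 UMIs. Mitochondrial transcripts made up a median of 3.70% and 4.43% in mast cells and 4.37% and 4.34% in the other immune cells. Summed over cells, the mast cells gave 106100 and 436279 UMIs, so a gene's level in CPM (its UMIs per 1000000 UMIs of the summed group) is less finely resolved in library 1. No mast cell barcode was shared between libraries.

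Mast cells made up 1.56% of the kept cells of bone-associated library 1 (exact binomial 95% interval 0.874% to 2.56%) and 2.32% of those of library 2 (1.76% to 2.99%). As a share of immune cells they were 2.99% and 4.65%. In the cortical surface-associated libraries, none of 743, 1252, 1103 and 2241 kept cells met the rule. A floor of 3 cells in place of the count of 0 corresponds to shares of 0.404%, 0.240%, 0.272% and 0.134%. The upper limits of the exact binomial 95% intervals, drawn as error bars, are higher, at 0.495%, 0.294%, 0.334% and 0.164%. The difference between the means of the 2 preparations was 1.94 percentage points. Both bone-associated values lay above all cortical values, and since the rule was written for these markers and these libraries the difference is a description with no test. Intervals and floors here and below cover counting error only. The preparations differed in dissection as well as in tissue, so the share in the suspension and the share in the tissue cannot be told apart.

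**Figure D1:**
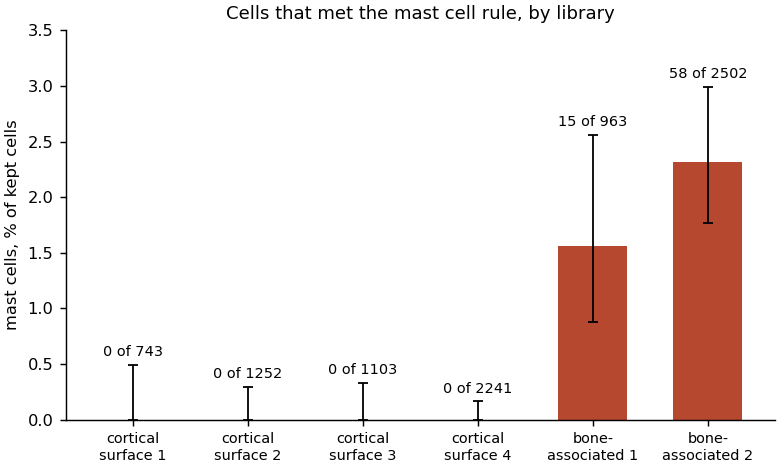
Percent of kept cells that met the mast cell rule (vertical axis) in each of the 6 libraries, with the number of cells above each bar. Error bars are exact binomial 95% intervals, and the 2 bone-associated libraries stood at 1.56% and 2.32% while the 4 cortical surface libraries stood at 0.

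The 5 genes that chose the cells are described without a test. Cpa3 encodes mast cell carboxypeptidase A, Mcpt4 and Cma1 chymases, Tpsb2 a tryptase and Ms4a2 the beta chain of FceRI. In the mast cells of libraries 1 and 2, Mcpt4 stood at 36611 and 30096 CPM, against 0.222 and 2.58 CPM in the other immune cells. Cma1 stood at 29249 and 29371 CPM in mast cells, Tpsb2 at 26120 and 28690 CPM, and Cpa3 at 23820 and 17685 CPM. Ms4a2, a receptor subunit, was far lower at 424 and 378 CPM. Together the 5 genes took a median of 11.8% and 11.1% of a mast cell's UMIs, ranging over single cells from 1.37% to 18.7%. All 5 were found in 61 cells, 4 in 11 cells and 3 in 1 cell.

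The rule's edge was sparse. The cell with 3 of the genes had 53 UMIs of them among 1267 UMIs in all, and the 11 cells with 4 genes had 120 to 1599. Just outside, 14 cells with 2 of the genes had 2 to 12 UMIs of them, and 1 of those 14 had a UMI of Kit. A further cell with 664 UMIs of the 5 genes was left out for its 6 UMIs of Cd3e, and it was not among the comparison cells either. Another with 127 was left out for 10.03% mitochondrial UMIs. Cma1 was the gene most often seen outside the mast cells, in 4.71% of other immune cells with at most 12 UMIs, against 1.79% for Mcpt4 and 1.55% for Tpsb2.

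The stretches upstream of 4 of these genes are shown because these genes chose the cells and because Gata2, which encodes a zinc finger factor that binds GATA motifs, was itself among the mast cell genes below. Each is the 250 bases before the RefSeq start on build GRCm38.p6, read 5′ to 3′ on the gene's strand. Capitals mark matches, on either strand, to AGATAA or AGATAG, or otherwise to TGATAA or TGATAG.
Cpa3 (chr3:20242182-20242431, minus strand): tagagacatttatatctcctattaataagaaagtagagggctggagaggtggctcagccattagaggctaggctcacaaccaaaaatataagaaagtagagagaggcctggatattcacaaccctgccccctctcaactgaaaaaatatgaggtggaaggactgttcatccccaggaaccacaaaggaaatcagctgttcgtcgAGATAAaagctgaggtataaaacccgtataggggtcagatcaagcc
Mcpt4 (chr14:56062311-56062560, minus strand): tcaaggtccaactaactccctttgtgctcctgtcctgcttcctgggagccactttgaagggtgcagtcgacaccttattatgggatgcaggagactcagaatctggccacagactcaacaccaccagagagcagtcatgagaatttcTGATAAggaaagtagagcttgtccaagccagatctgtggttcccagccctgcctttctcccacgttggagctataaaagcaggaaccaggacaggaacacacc
Cma1 (chr14:55944676-55944925, minus strand): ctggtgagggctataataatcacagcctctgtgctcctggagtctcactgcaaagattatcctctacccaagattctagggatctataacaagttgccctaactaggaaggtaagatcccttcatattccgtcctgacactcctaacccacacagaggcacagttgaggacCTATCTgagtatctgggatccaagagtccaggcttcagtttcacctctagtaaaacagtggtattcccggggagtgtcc
Ms4a2 (chr19:11623720-11623969, minus strand): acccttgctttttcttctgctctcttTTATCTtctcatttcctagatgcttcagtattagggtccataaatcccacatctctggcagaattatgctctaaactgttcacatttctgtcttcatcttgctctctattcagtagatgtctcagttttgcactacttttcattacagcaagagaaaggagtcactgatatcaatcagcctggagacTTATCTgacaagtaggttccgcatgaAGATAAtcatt

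In GENCODE vM21 the genes themselves span chr3:20215620-20242181 (Cpa3), chr14:56059629-56062313 (Mcpt4), chr14:55941451-55944675 (Cma1) and chr19:11615523-11623719 (Ms4a2), all protein-coding and all on the minus strand. The match nearest the start lay 46 bases before it in Cpa3, 103 in Mcpt4, 79 in Cma1 and 11 in Ms4a2, which had 3 matches. Of 26 mast cell genes looked up, 20 had an upstream sequence, and 16 of those 20 held a GATA match, against 26.5% of all 32851 sequences of that length. The E-box letters CACGTG or CATGTG, looked for on both strands because Mitf binds such words, were in 4 of the 20 and in 17.6% of all. No E-box match overlapped a GATA match in the 20. Kit, Gata2, Hpgds and Meis2 had no GATA match. The 20 include the 4 genes shown above, which chose the cells, and all 4 held a GATA match. The set was picked as mast cell genes and the background was not matched to it. The shares are therefore a description without a test. A match is a run of letters and not a binding site.

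Levels of 10 mast cell genes that the rule did not use were set beside the label. All 10 (Kit, Fcer1a, Hdc, Gata2, Slc18a2, Tph1, Rab27b, Mrgprb1, Mrgprb2 and Hpgds) were higher in the mast cells of both libraries than in the other immune cells of either. Each was found in over 10% of the mast cells but not of the other immune cells. Each therefore entered the comparison across genes below only through the mast cells, and these levels are a description. The share of all genes with such a gap was not counted. Hdc was also found in 98.0% of neutrophils and Hpgds in 62.4% of macrophages. At least 7 of the 10 were found in 68 of the 73 cells, and all 10 in 36. Ptprc itself had a UMI in 50 of the 73, so it was required of the comparison cells and not of the mast cells.

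Across all genes, mast cells were set against the other immune cells with UMIs summed per library, edgeR's quasi-likelihood test and the library as a block. A gene was called when its Benjamini-Hochberg adjusted p was below 0.05 and its log2 difference at least 1.3 in size. Of 7227 genes tested, 1903 were called (26.3%), 821 higher (11.4%) and 1082 lower (15%) in mast cells. The 8 genes used to choose cells were left out. The median log2 difference over all genes tested was -0.06, and without TMM scaling it was 0.12, with 977 genes higher and 918 lower. A gene passed the detection filter when over 10% of the cells of either group held it. Of the genes tested, 784 passed only through the mast cells, of which 431 were called higher and 0 lower, and 1470 passed only through the other immune cells, of which 732 were called lower and 0 higher. Such a gene had its direction fixed by the filter, so counts and medians of the gene groups below describe the genes that passed and support nothing beyond them. The difference of a single such gene is likewise given as a description with its SE, and an adjusted p is printed only for genes found in over 10% of the cells of both groups. DESeq2 called fewer genes on the same sums, 533 higher and 537 lower. Gates on marker genes took 436 comparison cells as T cells, 333 as B cells, 149 as macrophages and 98 as neutrophils. Library 1 gave 22 of the macrophages and 25 of the neutrophils. Another 643 cells passed no gate and 17 more than 1, and these are in none of the 4 classes. With the 4 as separate classes, 471 of 8869 genes differed the same way from each of them (5.31%). Of these, 341 were higher in mast cells (3.84%) and 130 lower (1.47%). Against each class alone, 22.8% of genes were called for T cells, 23.3% for B cells, 22.2% for macrophages, with 9.35% higher in mast cells, and 24.3% for neutrophils.

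Of 8 granule protease genes outside the rule, Tpsab1, Tpsg1 and Cma2 were tested, and all 3 passed the filter only through the mast cells. Tpsab1, the second classical tryptase, stood at 2177 and 3539 CPM in mast cells against 0 and 0.859 CPM in the other immune cells, higher by 12.31 ± 0.45 (log2, SE). Tpsg1, a membrane-anchored tryptase, was at 716 and 495 CPM, and with no UMI in the other immune cells it was at least 2898-fold higher. Cma2, another chymase gene, was at 179 and 84.8 CPM and at least 556-fold higher. Each was above the comparison cells in both libraries, a direction that the filter fixed. The share of all genes tested without overlap was not counted, so a lack of overlap here and below is only a description. Of the genes of mucosal mast cell proteases, Mcpt1 had no UMI in any of the 73 cells and Mcpt2 had 1 and 4 UMIs. Mcpt9, another chymase gene, was also at 0. Gzmb and Ctsg, protease genes of other leukocytes, were not tested, at 0 and 140 CPM and at 18.9 and 16.05 CPM in mast cells against 68.5 and 55.9 CPM and 214 and 62.4 CPM. Reads of near-identical copies (Tpsb2 and Tpsab1, or the chymase genes) could have been assigned to either, so their split is uncertain.

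Granules hold their cargo on serglycin decorated with heparin. Of 10 genes of this group, 9 were tested, 6 were higher and none lower, against 11.4% and 15% of all genes, with a median log2 difference of 1.47 against -0.06 over all genes, and 2 of the 6 passed the filter only through the mast cells. Ndst2, the sulfotransferase that starts heparin modification, was at 330 and 204 CPM in mast cells and 6.43 and 7.39 CPM in the other immune cells, higher by 5.07 ± 0.32. Hs3st1, which adds 3-O sulfate, was at 396 and 571 CPM against 33.5 and 40.1 CPM. As a description, for both enzymes the lower of the mast cell values lay above the higher of the comparison values. Srgn, the serglycin core protein, was at 6099 and 6843 CPM against 2473 and 2020 CPM, a log2 difference of 1.47 ± 0.27, but not from neutrophils, where it was at 5084 and 3963 CPM (0.05 ± 0.32). Ndst1, the relative of Ndst2, was not called, at 37.7 and 13.8 CPM in mast cells.

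In the amine group, Hdc, Tph1, Slc18a2, Ddc and Maob were tested of the 7 genes listed, and all 5 passed the filter only through the mast cells. Maoa and Hnmt, which break amines down, were found in too few cells of either group. Hdc, which makes histamine from histidine, was found in 73 of 73 cells at 5363 and 4571 CPM, against 153 and 101 CPM in the other immune cells (log2 difference 5.26 ± 0.31). Of the 4 classes, neutrophils held the most Hdc, at 1265 and 1436 CPM, and the mast cells were higher by 1.37 ± 0.31. Tph1, the first enzyme of serotonin synthesis, was at 688 and 706 CPM against 0.443 and 0.687 CPM, higher by 10.05 ± 0.39. Slc18a2, which loads amines into vesicles, was at 764 and 424 CPM against 7.54 and 1.89 CPM. Ddc, the next enzyme of serotonin synthesis, was found in 21 cells and the amine oxidase gene Maob in 30. The gene of the histamine-degrading enzyme, Hnmt, had no UMI in mast cells, and 76 in the much larger comparison group.

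Of the 15 genes for the IgE receptor and its signalling, 7 were higher, 2 lower and 6 not called (median 0.63), against 11.4% higher and 15% lower over all genes, and 2 of the 7 passed the filter only through the mast cells. Fcer1a, the IgE-binding chain, was at 754 and 635 CPM in mast cells and had 3 UMIs in all other immune cells, a ratio of 3543 with a counting interval of 1203 to 17262. The shared signalling chain Fcer1g stood at 2300 and 2311 CPM, but macrophages held as much, at 2004 and 2133 CPM, and its call against the pooled cells was lost under 6 alternatives, among them DESeq2 (1.25 on the log2 scale) and the fit without the library block (1.27). The adaptor Lat2 was higher by 3.63 ± 0.26, at 801 and 607 CPM against 49.2 and 56.8 CPM. The proximal kinases Lyn, Fyn and Syk and the adaptor Lat were not called, with log2 differences of 0.27, 0.27, -0.33 and 0.17 from the pooled cells. Against single classes they differed, with Lat lower than in T cells (-2.09 ± 0.33) and higher than in B cells (4.62 ± 0.50), macrophages (5.56 ± 0.55) and neutrophils (6.23 ± 0.76). Syk and Lyn were higher than in T cells (6.41 ± 0.58 and 3.71 ± 0.38) and not called against the other 3 classes, and Fyn was higher than in B cells (1.57 ± 0.37), macrophages (2.05 ± 0.39) and neutrophils (3.74 ± 0.56) and not called against T cells. The calcium channel gene Orai1 was lower by a log2 difference of -3.36 ± 0.47, at 9.43 and 16.05 CPM against 124 and 153 CPM.

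Among 22 genes for growth factor and activating receptors, 17 were tested, 10 were higher, 3 lower and 4 not called (median 2.26), against 11.4% higher and 15% lower over all genes. Of the 10, 7 passed the filter only through the mast cells, and the 3 only through the other immune cells. Kit was found in 71 of 73 cells at 2055 and 1135 CPM against 23.9 and 12.6 CPM, higher by 6.40 ± 0.31, and it passed the filter only through the mast cells. Il1rl1, the receptor for the alarmin IL-33, was also found in 71 cells, at 1819 and 1155 CPM against 63.0 and 53.1 CPM (4.58 ± 0.29). For both receptors the difference between mast cells and comparison cells exceeded the difference between libraries. Mrgprb2, which senses basic peptides, was at 481 and 580 CPM, with 1 UMI in the 1676 other immune cells, a ratio of 9051 with a counting interval from 1612 to 358662. Its neighbour Mrgprb1 was at 1951 and 1371 CPM, with 3 UMIs in the other cells, and reads of these related genes could be split between them. The adenosine receptor gene Adora3 was at 613 and 619 CPM against 0.665 and 1.80 CPM, and the ATP-gated channel gene P2rx1 at 104 and 128 CPM against 0.443 and 0.687 CPM. Ptger3, a receptor for prostaglandin E2, was found in 19 cells. Of the complement receptor genes, C3ar1 had no UMI and C5ar1 1 UMI in mast cells, and Tacr1, the substance P receptor, had none in either group. Among 10 genes for inhibitory receptors, 9 were tested, 3 were higher, 2 lower and 4 not called (median 0.01), against 11.4% higher and 15% lower over all genes, and both lower genes passed the filter only through the other immune cells. Cd200r1, an inhibitory receptor, was higher by 2.04 ± 0.40.

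Among lipid mediator genes, Hpgds, the enzyme of prostaglandin D2, was at 358 CPM in the mast cells of both libraries against 18.0 and 40.4 CPM, and Alox5, which starts leukotriene synthesis, at 255 and 135 CPM against 11.5 and 12.8 CPM. Hpgds did not pass against macrophages, at 162 and 192 CPM (0.89 ± 0.29), and Alox5 not against neutrophils, at 52.5 and 98.1 CPM (0.65 ± 0.37). Ptgs2, the inducible cyclooxygenase gene, had 0 and 3 UMIs in mast cells and was called lower, with a ratio of other over mast cells of 20.3 (counting interval 6.94 to 98.6). The leukotriene C4 synthase gene Ltc4s had 0 and 5 UMIs. Over the 12 genes, 6 were tested, and each of the 2 called higher and the 2 called lower passed the filter through 1 group only, and 11.4% of all genes were called higher and 15% lower.

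**Figure D2:**
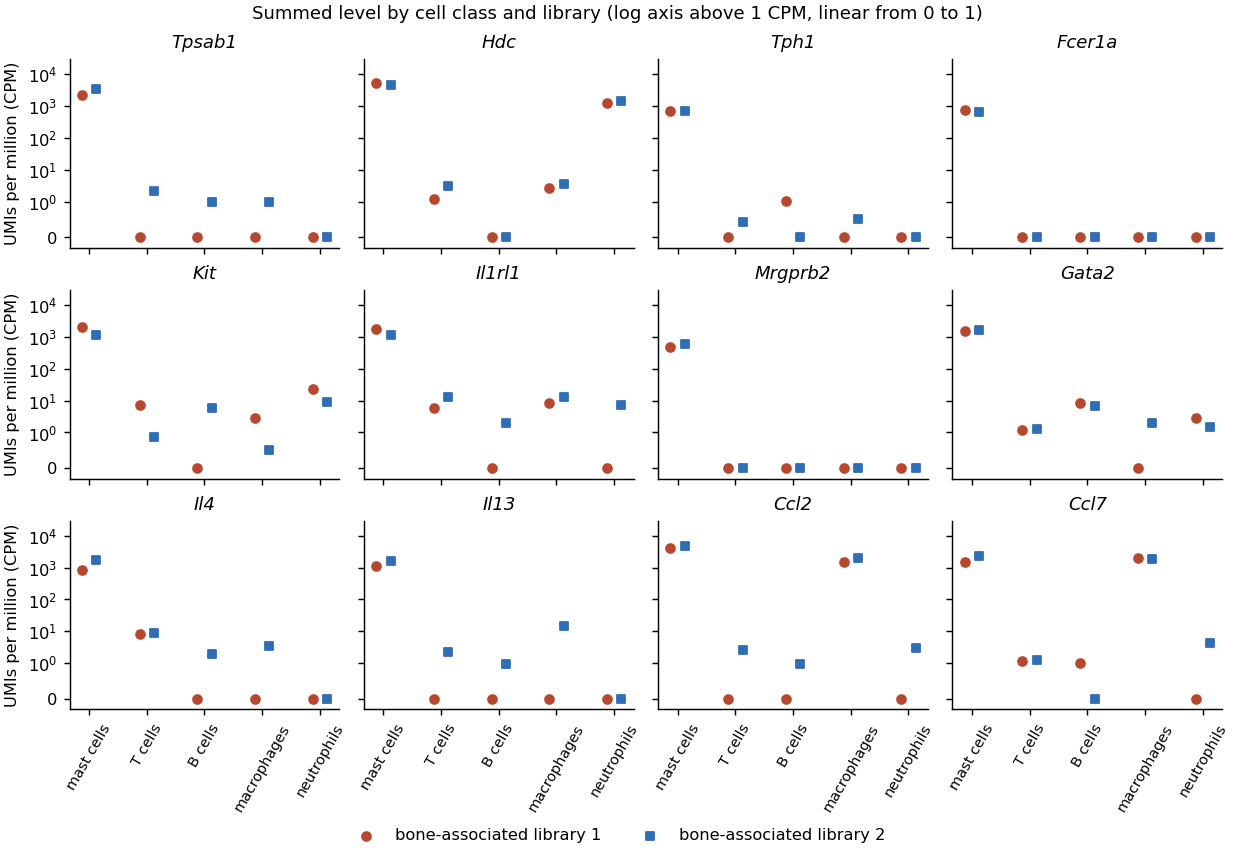
Level of 12 genes (CPM, log axis above 1 and linear below) in the summed mast cells, T cells, B cells, macrophages and neutrophils of each bone-associated library, with circles for library 1 and squares for library 2. Of the groups drawn, mast cells were highest in both libraries for each gene except Ccl7. For Ccl7, macrophages stood at 1946 and 1853 CPM beside 1508 and 2352 CPM in mast cells. The 643 other immune cells that passed no gate, which held most Il13 UMIs outside the mast cells, are not drawn.

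Transcripts of cytokines and chemokines were abundant in a small set. Of the 26 genes, 18 were tested, 7 were higher, 5 lower and 6 not called (median 0.91), against 11.4% higher and 15% lower over all genes. Of the 7, 5 passed the filter only through the mast cells, and the 5 lower genes only through the other immune cells. Il4, a type 2 cytokine, was found in 13 of 15 and 56 of 58 mast cells, at 848 and 1731 CPM against 15.97 and 32.7 CPM in the other immune cells (5.67 ± 0.30). Il13, its neighbour on chromosome 11, was found in 11 and 53 cells at 1084 and 1593 CPM against 37.5 and 131 CPM (4.11 ± 0.28). Both passed the filter only through the mast cells. As a description, the groups did not overlap for either cytokine, and 63 of the 73 cells held transcripts of both cytokines. T cells held little of either, with 8.32 and 8.70 CPM of Il4. Most UMIs of Il13 in the other immune cells were in cells that passed no gate, where 98 of 643 cells had one. Those 98 cells held 1655 UMIs of Il13, at most 110 in a cell. The mast cells held 810, at most 70 in a cell. Tnf, released by mast cells as a stored or newly made cytokine, was at 518 and 525 CPM against 36.8 and 63.3 CPM. Il5, Il9, Il3 and Il10 had no UMI in any mast cell.

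The monocyte chemokine gene Ccl2 was found in 69 of 73 mast cells, at 4006 and 4922 CPM against 158 and 392 CPM in the other immune cells (4.09 ± 0.30; edgeR adjusted p = 1.98e-40). Ccl7, a related chemokine, was found in 43 cells, at 1508 and 2352 CPM against 169 and 350 CPM (2.89 ± 0.27). Macrophages carried both. The log2 difference between mast cells and macrophages was 1.24 ± 0.32 for Ccl2, under the limit of 1.3, and -0.13 ± 0.31 for Ccl7. Of the other chemokine genes listed, Ccl3, Ccl4, Ccl9 and Cxcl2 were called lower and Ccl1 was not called. Ccl3 had 0 and 1 UMIs in mast cells against 128 and 168 CPM in the other immune cells. Ccl4 stood at 18.9 and 61.9 CPM against 383 and 515 CPM (-3.32 ± 0.33). With cells of 2 markers or more taken as mast cells, the direction of Ccl4 turned (1.47 ± 1.43) and it was not called. Against single classes, Ccl4 was lower than in macrophages (-4.65 ± 0.44) and neutrophils (-2.39 ± 0.45). It was higher than in B cells (8.51 ± 1.14) and not called against T cells (-0.57 ± 0.46). Il6 was called higher (1.45 ± 0.49), but its libraries went opposite ways, 9.43 against 46.8 CPM in library 1 and 64.2 against 10.05 CPM in library 2, and DESeq2 did not call it.

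Of 13 genes of transcription factors known in mast cells, 11 were tested. The 5 called higher, Gata1, Gata2, Mitf, Tal1 and Meis2, all passed the filter only through the mast cells, and 11.4% of all genes were called higher. Gata2 was at 1508 and 1662 CPM against 14.6 and 6.96 CPM, higher by 7.26 ± 0.33. Meis2, a homeobox factor, was at 424 and 328 CPM against 0.665 and 1.12 CPM, and Tal1 at 452 and 215 CPM against 2.44 and 2.06 CPM. Mitf, a basic helix-loop-helix factor, was higher by 4.85 ± 0.40. Gata1, close kin of Gata2, had only 11 UMIs in mast cells and 2 in the others. Runx1, Spi1, Fli1, Bhlhe40, Stat5a and Stat5b, which many blood lineages share, were not called against the pooled cells, with log2 differences between -1.22 and 0.74. Against single classes, Spi1 was higher than in T cells (5.13 ± 0.45) and lower than in neutrophils (-2.10 ± 0.32), Runx1 lower than in macrophages (-2.37 ± 0.34) and Bhlhe40 higher than in B cells (2.37 ± 0.34), while Fli1, Stat5a and Stat5b were called against none of the 4. Cebpa, a myeloid factor, had 1 UMI in mast cells.

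Of 13 granule exocytosis genes tested, 4 were higher, 1 lower and 8 not called (median 0.20), against 26.3% called over all genes, and 2 of the 4 higher genes passed the filter only through the mast cells. Rab27b, which tethers secretory granules, was at 584 and 617 CPM against 12.2 and 11.1 CPM (5.65 ± 0.29), whereas its relative Rab27a had 0 and 2 UMIs and was called lower, the ratio of other over mast cells being 5.22 (counting interval 1.43 to 43.3). Cd63, a granule membrane tetraspanin, was at 1923 and 2233 CPM against 142 and 181 CPM, but was not called against macrophages (1.80 ± 0.65) or neutrophils (1.63 ± 0.66). Stx3 was at 245 and 206 CPM against 10.9 and 15.6 CPM. The fusion genes Vamp8, Snap23 and Stx4a were not called, at log2 differences of -0.16, 0.05 and 0.61.

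**Figure D3:**
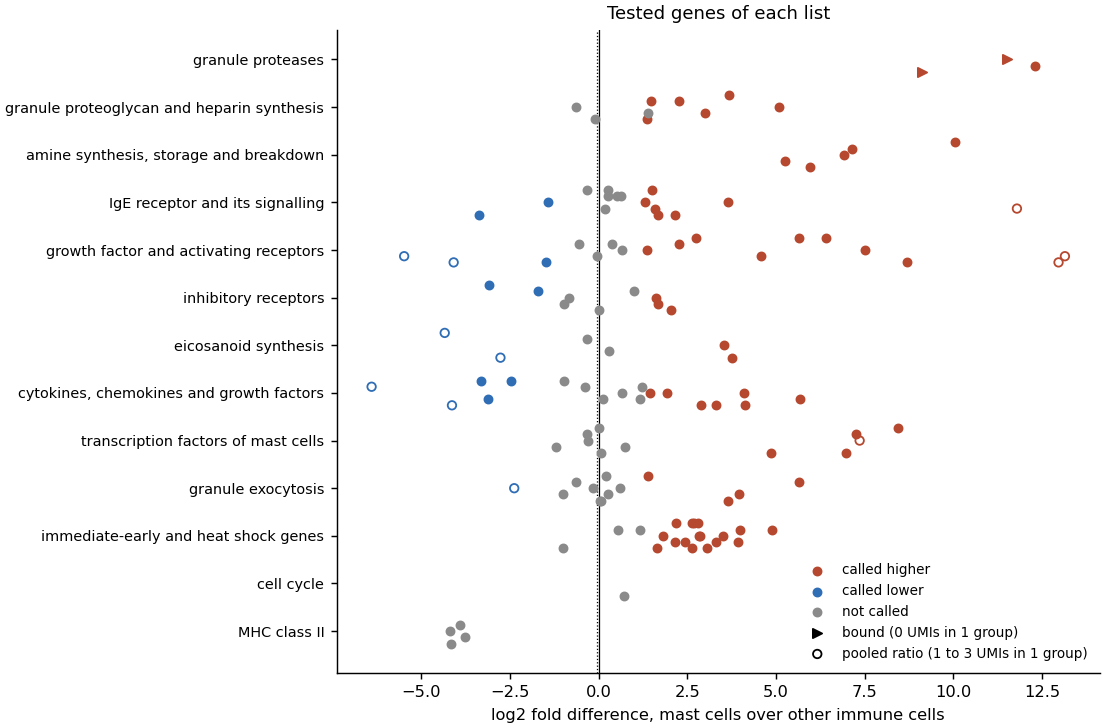
Log2 fold difference between mast cells and the other immune cells (horizontal axis) for the tested genes of 13 lists (vertical axis), coloured by call. Filled circles are edgeR estimates, triangles are bounds for genes with 0 UMIs in a group and open circles are pooled ratios for genes with 1 to 3 UMIs in a group. The dotted line is the median of all genes tested, -0.06, and 17 of the 20 immediate-early and heat shock genes were called higher.

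Immediate-early and heat shock genes, which cells switch on within minutes of a stimulus, were high. Of 20 genes, 17 were higher, none lower and 3 not called (median 2.66), against 11.4% higher over all genes, and 9 were higher than in each of the 4 classes, against 3.84% of all genes. Of the 17, 16 were found in over 10% of the cells of both groups. Jun, a subunit of the AP-1 factor, was found in all 73 cells at 10934 and 14568 CPM against 330.4 and 499.9 CPM in the other immune cells (4.90 ± 0.31; edgeR adjusted p = 5.50e-52). Fos, its partner, was at 6824 and 6590 CPM against 577 and 729 CPM. Egr1, a zinc finger factor, was at 2950 and 2368 CPM against 186 and 141 CPM, and the co-chaperone gene Dnajb1 at 1565 and 2343 CPM against 105 and 140 CPM. Among the classes, macrophages came nearest for Jun, at 997 and 1164 CPM. Summed over the 20 genes, the list took 64889 and 75440 CPM in mast cells and 9174 and 11981 CPM in the other immune cells. Mast cells and comparison cells came from the same suspensions, and whether dissociation or sorting bears on these levels was not tested. Atf3, Nr4a3 and Hsp90aa1 were not called. Hspa1a (2.19 ± 0.28) and Hspa1b are near-identical copies and share reads, and neither was called against any of the 4 classes. The call of Hspa1a was also lost without the likely doublets and against all other kept cells.

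MHC class II genes, which serve antigen presentation, were near 0 in most mast cells, and so were the cell cycle genes other than Pcna. Of 10 cell cycle genes, Cdk1, Ccnb1, Ccnb2 and Birc5 had no UMI and Mki67 had 2. Pcna, a sliding clamp of DNA synthesis and repair, was found in 49 of the 73 cells at 245 and 149 CPM against 158 and 81.3 CPM, and was the only gene of the list detected widely enough to be tested (0.72 ± 0.28, not called). The list summed to 255 and 165 CPM in mast cells and 422 and 252 CPM in the other immune cells. The 4 MHC class II genes had 1 UMI in library 1 and 1593 in library 2, and 1569 of the 1594 came from 3 cells. These 3 cells had 1222, 281 and 66 MHC class II UMIs, and the rule's genes took 1.37%, 2.32% and 3.99% of their UMIs. The cell with 1222 had 26992 UMIs in all, the most of any mast cell, and UMIs of 3 dendritic cell, 2 fibroblast and 2 mural genes. The cell with 281 had UMIs of 3 macrophage genes, and the cell with 66 of 4 monocyte and 2 macrophage genes. None of the 4 genes was called with these cells in. Without them, an alternative added after seeing the data, the log2 differences of Cd74 and the other 3 were from -8.91 to -8.27. The cells were set aside for their UMIs of these same genes. Their removal lowers the values by construction, so these are a description and no call is drawn from them. No doublet caller was run, and the part of doublets in these 3 cells was not tested.

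Markers of other cell types were followed in all 73 cells. The 4 eosinophil genes and the 4 osteoblast genes were at 0. Natural killer genes held 1 UMI, with 4 of 5 at 0, and T cell genes 3 UMIs, with 4 of 7 at 0, among them Cd3e by the rule. Neutrophil genes summed to 9.43 and 25.2 CPM in mast cells against 14316 and 11232 CPM in the other immune cells, with S100a9 the most abundant. Macrophage genes summed to 0 and 156 CPM, led by C1qb with all of its 39 UMIs in 1 cell, and Csf1r at 0. B cell genes summed to 66.0 and 117 CPM, of which Ighm made 56.6 and 108 CPM, with Cd79a (by the rule) and Ms4a1 at 0. Dendritic cell genes summed to 0 and 160 CPM, of which Ccr7 made 154 CPM in library 2, and monocyte genes to 0 and 131 CPM. Only 2 cells had a dendritic cell gene, 3 such genes in the cell with 1222 MHC class II UMIs and 1 in another, and 6 cells had a monocyte gene, 4 such genes in the cell with 66. Genes of group 2 innate lymphoid cells summed to 66.0 and 68.8 CPM and Schwann cell genes to 28.3 and 27.5 CPM. Fibroblast genes summed to 9.43 and 32.1 CPM, mural genes to 28.3 and 48.1 CPM and endothelial genes to 236 and 22.9 CPM, the last with Pecam1 at 56.6 and 16.05 CPM and the 11 Plvap UMIs of library 1 all in 1 cell. Hemoglobin genes summed to 37.7 and 66.5 CPM, against 2364 and 9530 CPM in the other immune cells. Over the lists of T cells, B cells, macrophages, neutrophils, natural killer cells, fibroblasts, endothelial cells and mural cells, 13 of the 73 cells had UMIs of at least 2 genes of 1 list, and without them 2057 genes were called. Of the 4 basophil genes, Cd200r3, Prss34 and Itga2 were tested and called higher, against 11.4% of all genes, and all 3 passed the filter only through the mast cells. Itga2, an integrin gene, had 12 UMIs in mast cells, and its call was lost under 5 alternatives, among them DESeq2 and 4 markers or more. Cd200r3, an activating receptor gene, was at 471 and 566 CPM against 2.44 and 0.773 CPM, while the basophil protease gene Mcpt8 had 0 and 4 UMIs.

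The 10 with the largest estimates among those higher were Tpsg1, Speer4e, Gm21190, Atp8b5, Mrgprx2, Mrgprb1, Mrgprb2, Tpsab1, Prss34 and Speer4d. Speer4e was found at 273 and 401 CPM, Gm21190 at 264 and 309 CPM and Speer4d at 207 and 121 CPM, with no UMI of any in the other immune cells. All 3 lie on chromosome 5, and the Speer4 genes are near-identical copies, so their reads could be split between them. Atp8b5, a lipid flippase gene, was at 386 and 227 CPM and at least 1389-fold higher, and Mrgprx2, another receptor of the Mrgpr family, at 311 and 234 CPM and at least 1340-fold higher. Prss34, a protease gene also known from basophils, had 86 UMIs, in 10 of the 73 cells. Among the 10 with the largest decreases, Cxcr4, the receptor for the chemokine CXCL12, had no UMI in any mast cell, against 297 and 280 CPM in the other immune cells and a UMI in 67.8% of them, so it was at least 51.5-fold lower. It was lower than in each of the 4 classes. The other 9 were Trdc, Cxcr6, Cd209a, Iglc2, Nkg7, Csf1r, Trbc1, Xcl1 and Ms4a1, genes of lymphocytes, dendritic cells and macrophages, and all 9 were at 0 in the mast cells.

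The mast cells differed among themselves. Over 696 genes with at least 100 UMIs in the 73 cells, the ratio of variance to mean, with cells scaled to a common depth, had a median of 2.31. The 10 highest were Cd74, Lyz2, Malat1, Ccl7, Cma1, Tmsb4x, Mcpt4, H2-Aa, Hspa1a and H2-Eb1. For Cd74, Lyz2, H2-Aa and H2-Eb1 the highest cell held 75.8%, 93.5%, 79.4% and 79.2% of the UMIs, and for the cytoskeletal gene Tmsb4x 41.5%. Ccl7 differed in kind, with a median of 3, a highest value of 168 and UMIs in 43 cells. Mcpt4 ranged from 0 to 601 UMIs per cell (median 233) and Cma1 from 19 to 684 (median 200). In library 1, Ccl2 ranged from 1 to 197 UMIs with a median of 10, and 126 of the 160 Ccl7 UMIs and 70 of the 115 Il13 UMIs were in the highest cell of each. In library 2, Ccl2 ranged from 0 to 141 (median 28.5), Il4 from 0 to 109 (median 5.5) and Il13 from 0 to 58 (median 8).

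**Figure D4:**
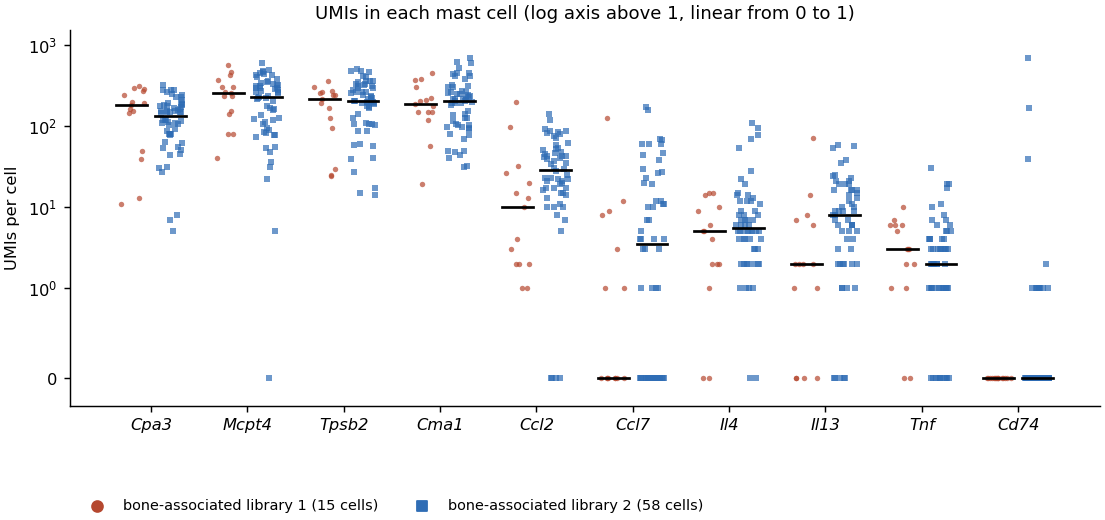
UMIs of 10 genes in each mast cell (vertical axis, log above 1 and linear below). Circles are the 15 cells of library 1, squares the 58 cells of library 2, and bars the median of each library. The 4 granule genes at the left had library medians from 132 to 252, Ccl7 was 0 in 30 of the 73, and Cd74 rose above 2 UMIs in 3 cells.

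Genes that varied with the rule's genes were ranked by Spearman correlation over the 73 cells of their share of UMIs with the summed share of the 5. The 10 most alike were Cd63, Arhgdib, Nucb1, Rsrp1, Fcer1g, Mfge8, Hmgb1, Bcap31, Apoe and Ndst2. Cd63 had the highest value, rho = 0.47 over the 73 cells, with 0.55 in library 1 and 0.47 in library 2. The tenth, Ndst2, had 0.33 over all cells and 0.03 in library 1. These are descriptions over cells that share 2 libraries, and cell depth itself had rho = 0.34 with the summed share. Il4 and Il13 had rho = 0.41, and Ccl2 and Ccl7 0.39, with -0.02 in library 1 and 0.44 in library 2.

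The 2 libraries' mast cells were then compared with each other, as values without a test. Of the 696 genes, 7 differed at least 4-fold in CPM (1.01%), all higher in library 2. Cd74, H2-Aa, H2-Eb1, H2-Ab1 and Lyz2 were the genes of the few cells described above. Ccl1, a chemokine gene, was 5.39-fold higher (56.6 and 305 CPM; counting interval 2.41 to 14.95), with 133 UMIs in 8 cells of library 2, and 1.75-fold higher in the other immune cells. Furin, which encodes a proprotein convertase, was 5.38-fold higher (151 and 811 CPM; counting interval 3.27 to 9.52), found in 6 of 15 and 48 of 58 cells, and 1.22-fold higher in the other immune cells. Without the 3 cells high in MHC class II, 640 genes still had 100 UMIs, and Ccl1 and Furin were those that differed. The other 5 fell below 100 UMIs and were no longer compared. When the highest cell of each library was set aside for each gene, 622 genes still had 100 UMIs, and those that differed were Furin, Slco2b1, Ccl7 and Cd74. Ccl1, Lyz2, H2-Aa, H2-Eb1 and H2-Ab1 fell below 100 UMIs and were not compared there.

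**Figure D5:**
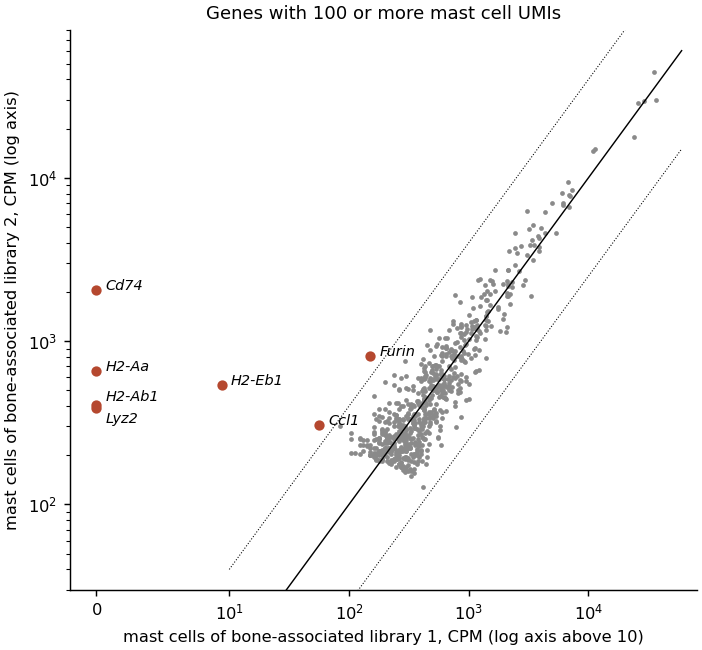
CPM of 696 genes with at least 100 UMIs in the mast cells of library 1 (horizontal axis, log above 10) and library 2 (vertical axis, log). The solid line marks equal levels and dotted lines a 4-fold difference, and the 7 named genes lay above the upper dotted line.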

How the data were processed

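Each library's deposited matrix held raw UMI counts per gene and barcode that the authors made with Cell Ranger (version 3 in the submitters' processing notes, 6.1.2 in the file headers) on mm10, and no normalized value was used. The labels' extraction text names papain and another tissue, whereas the study's methods give collagenase and dispase for meningeal tissue. The members, gene lists and tests were chosen with earlier results of these data known. Counts were summed per library and cell group, and CPM was taken over genes with distinct symbols. A detection rate above 10% in mast cells or in the comparison cells admitted a gene to edgeR 4.0.16 (TMM, library as block, 1 residual degree of freedom per gene before moderation), and again with DESeq2 1.42.0. Gates took other cells as T cells, B cells, macrophages or neutrophils. Only the edgeR fit of mast cells against the other immune cells was tried on simulated sums, and the other steps were not. Named genes were all listed genes plus, of called genes with at least 50 UMIs and libraries that did not overlap, the 10 largest changes each way, the 10 most variable and the 10 most like the rule's genes. Upstream sequences came from RefSeq, coordinates from GENCODE vM21 by Ensembl identifier (30934 of 31053 matched). Alternatives covered filters, scaling, the rule, doublets, depth and comparison cells. Free RNA was not corrected. A listed transcription factor gene is not reported here.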

Additional observations from a re-analysis of the deposited data

How the results depend on the processing

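The count of 1903 called genes lay within 1.5 times of itself under every alternative run except DESeq2, which called 1070, and thinning to 1500 UMIs per cell, which left 2339 genes tested and 845 called. A like count did not always mean the same genes. Against all other kept cells 2307 were called, with 616 of the 821 higher and 620 of the 1082 lower genes among them. At 2 markers or more, 688 and 763 of them kept their call. Without the replicate block, which joins sums of the same library by construction, 1860 were called. Leaving out a bone-associated library leaves no residual degree of freedom, so the calls were not refitted. The rule took 68 to 87 cells under the other filters and marker numbers, with 1 cortical surface cell at a limit of 20% mitochondrial UMIs and 5 at 2 markers or more, and the excess over the cortical surface was 1.56 to 2.32 percentage points with libraries left out in turn. The genes that differed between libraries numbered 2 in place of 7 without the cells high in MHC class II (Furin and Ccl1), and 4 without each gene's highest cell of each library (Furin, Slco2b1, Ccl7 and Cd74), 2 of them not among the 7. Fewer genes then reached 100 UMIs (640 and 622 in place of 696), and the other genes of the 7 fell below that number and were not compared. Of 88 called named genes with more than 3 UMIs in both groups, 57 kept their call under each alternative fitted for them. The direction turned for Ccl4 at 2 markers or more (1.47), for Il6 against all other kept cells (-0.34), for Il6 without library 2 (-2.31, against 2.67 without library 1), and for Csf2 (2.18) and Gata3 (0.24) with the 4 classes weighted equally. The cause was not tested.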

Other observations

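No cortical surface cell met the mast cell rule, but 6 had UMIs of 2 of its 5 genes. In all 6 the pair was Cpa3 and Ms4a2, with 2 to 43 and 4 to 42 UMIs, and Mcpt4, Tpsb2 and Cma1 were at 0. The basophil protease gene Mcpt8 had UMIs in 4 of the 6, with 1031 in a cell of library 3 that also held 789 UMIs of the basophil protease gene Prss34 and 28 of Fcer1a. Kit had 2 UMIs in 1 of the 6 and none in the others, whereas it was found in 71 of the 73 dural mast cells. In the bone-associated libraries, 5 cells outside the rule held the same pair, with 1 to 10 UMIs of Cpa3, 1 to 7 of Ms4a2 and 27 to 79 of Hdc, and Kit in 1 of them. Over the 5339 kept cortical surface cells, Mcpt4 and Tpsb2 had no UMI, and Cma1 had 151 UMIs in 63 cells.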
